A study of Mus musculus with 20 samples.

Results

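Notch signalling passes between cells that touch each other, and the description here covers 10 of its genes in the brains of mice with and without Helios. They were the receptors Notch1, Notch2 and Notch3, the ligands Dll1, Dll3 and Jag1, and the target genes Hes1, Hes5, Hey1 and Hey2. They were chosen by name, but with earlier results of these data known. Entrez identifiers located them among 27179 genes in a table of RPKM, reads divided by the length of the gene and the size of the library. All 10 were measured in all 20 libraries and passed the filter on low values in every comparison. The libraries came from striatum labelled Helios full knockout, striatum labelled wild type, hippocampus labelled Helios full knockout and hippocampus labelled wild type, with 5 libraries in each group. All were of the strain C57BL/6. Helios is a zinc finger transcription factor encoded by Ikzf2, and the label gives a loss in the whole animal and no driver or second allele. Age, sex and the number of animals are not given in the sources used here. The labels do not tie a library to an animal, so the p-values reflect how far these libraries differ among themselves, which may be technical.

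A ligand on one cell binds a Notch receptor on its neighbour, the receptor is cut by an ADAM protease and then by gamma-secretase, and the freed intracellular part enters the nucleus. There it joins the DNA-binding protein RBPJ and a Mastermind co-activator and turns on Hes and Hey genes, whose products are transcriptional repressors of proneural genes. In the developing brain the pathway is known for holding radial glia and other progenitors in an undifferentiated state, and in vessels for its part in mural cells.

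The promoters of Hes5 and Hey2 are shown because both genes stood apart in 1 striatal library, and because they hold the core letters that RBPJ recognises. They are RefSeq sequences of build GRCm38.p6, from 250 bases before the annotated start to 10 bases after it, 5′ to 3′, and capitals mark GTGGGAA on either strand.
Hes5: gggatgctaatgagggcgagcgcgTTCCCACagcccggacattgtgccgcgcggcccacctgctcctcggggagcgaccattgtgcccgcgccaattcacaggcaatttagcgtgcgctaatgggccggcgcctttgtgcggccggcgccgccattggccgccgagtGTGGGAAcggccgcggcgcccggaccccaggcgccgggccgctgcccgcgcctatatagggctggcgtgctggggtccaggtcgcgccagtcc
Hey2: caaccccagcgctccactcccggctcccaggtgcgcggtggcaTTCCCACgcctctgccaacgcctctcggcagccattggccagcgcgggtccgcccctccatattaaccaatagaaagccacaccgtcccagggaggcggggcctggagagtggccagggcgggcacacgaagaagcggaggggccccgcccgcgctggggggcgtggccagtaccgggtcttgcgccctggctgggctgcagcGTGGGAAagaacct
The Hes5 window lies at chr4:154960673-154960932 on the plus strand, with matches beginning at -226 and -83 from the start. The Hey2 window lies at chr10:30842774-30843033 on the minus strand, with matches beginning at -207 and -4. Each held 2 matches, and 6.38% of 32851 promoter windows of 300 bases held at least 1 match and 0.256% at least 2. The windows of the other members held no GTGGGAA, among them that of Notch2, which stood apart in the same library. As the pair was picked in part for its matches, these shares are no test. A match of letters is a description and not a measured binding site. RefSeq windows were found for 8 of the 10 members, and Hes1 and Hey1 are named only.

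The promoters of Dll3 and Dll1 are shown because these ligands differed between the tissues in opposite directions. Capitals mark CAGCTG, an E-box of the kind bound by proneural factors, which reads the same on both strands.
Dll3: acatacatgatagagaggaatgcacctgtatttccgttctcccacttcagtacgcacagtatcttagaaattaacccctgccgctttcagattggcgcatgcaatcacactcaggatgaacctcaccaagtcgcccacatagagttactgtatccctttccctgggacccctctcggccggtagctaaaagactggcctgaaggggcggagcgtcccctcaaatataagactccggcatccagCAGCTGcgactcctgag
Dll1: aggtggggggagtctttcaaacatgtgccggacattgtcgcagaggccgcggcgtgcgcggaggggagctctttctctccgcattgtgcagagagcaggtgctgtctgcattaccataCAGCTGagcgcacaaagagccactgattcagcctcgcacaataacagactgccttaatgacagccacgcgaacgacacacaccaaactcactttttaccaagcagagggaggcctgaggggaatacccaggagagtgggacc
The Dll3 window lies at chr7:28301776-28302035 and the Dll1 window at chr17:15376923-15377182, both on the minus strand, with matches beginning at -7 and -132. Dll1 has 2 annotated starts, and the window of the other start held no CAGCTG. Among the other members with a window, Jag1 held 1 match, and 16.3% of the 32851 windows of 300 bases held at least 1. No window of a member held both motifs, so the 2 do not overlap there.

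The libraries held 17966618 to 37085903 reads recovered from the RPKM values, and the members between 82 reads for Dll3 and 4143 reads for Notch1 in a library. Tissue markers followed the labels: the summed level of 12 striatal markers was 504 to 868 RPKM in striatum and 47.3 to 74.5 RPKM in hippocampus. That of 10 hippocampal markers was 102 to 453 RPKM in striatum and 534 to 705 RPKM in hippocampus. Within striatum, knockout 7 at 453 RPKM and wild type 5 at 449 RPKM stood apart in that sum. The other striatal libraries were at 102 to 227 RPKM, and the part of this in the Notch values was not tested. Ikzf2 averaged 0.930 ± 0.158 RPKM in knockout striatum and 2.64 ± 0.623 RPKM in wild type striatum (SD, n = 5 each), with no overlap. In hippocampus it was 1.43, 0.785, 0.353, 0.617 and 0.550 RPKM in libraries labelled knockout and 1.32, 1.58, 1.33, 1.61 and 0.782 RPKM in libraries labelled wild type, so 1 library of each label lay among the other group. These are the codes 7_6 and 7_1, which carry the opposite genotype in the striatal titles. Codes beginning with 6 were all wild type and codes beginning with 8 all knockout, so whatever that number stands for cannot be told apart from genotype. A further hippocampal library, knockout 10, carries the tissue tag of striatum but the title and markers of hippocampus.

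In 2 libraries the Notch genes stood apart from their group. In striatum wild type 4, Hey2, Notch2, Hes1 and Hes5 were high. In that library the summed level of 9 meningeal markers was 87.8 RPKM, against 5.74 to 15.3 RPKM in the other wild type striatal libraries. That of 12 mural markers was 79.6 RPKM against 45.7 to 48.7 RPKM, and that of 13 radial glial markers was 2274 RPKM against 1009 to 1173 RPKM. Most of the radial glial sum was Fabp7, also a listed Notch target, at 1636 RPKM against 583 to 653 RPKM. The mean log2(RPKM + 1) of the 13 was 5.64 against 4.90 to 5.16. Sums of other lists were also highest there: choroid plexus (20.1 RPKM against 4.51 to 6.55), oligodendrocyte lineage (189 against 88.8 to 118) and microglia (49.2 against 24.1 to 34.4). So were those of the cell cycle (239 against 144 to 171) and endothelium (102 against 78.9 to 85.2). Not every list was, as the neuronal sum was lowest there (2892 against 3012 to 3635). In hippocampus knockout 8, the receptor and ligand genes Notch1, Notch2, Notch3, Jag1 and Dll1 were low. The level of 1609 genes of 6000 bases or more had a median of -0.70 on the log2(RPKM + 1) scale relative to the tissue's median in that library, against -0.15 to 0.05 in the other 19 libraries, and that of 4486 genes under 2000 bases had a median of 0.48, against -0.06 to 0.11. The part of these markers and of gene length in the results was not tested.

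**Figure D1:**
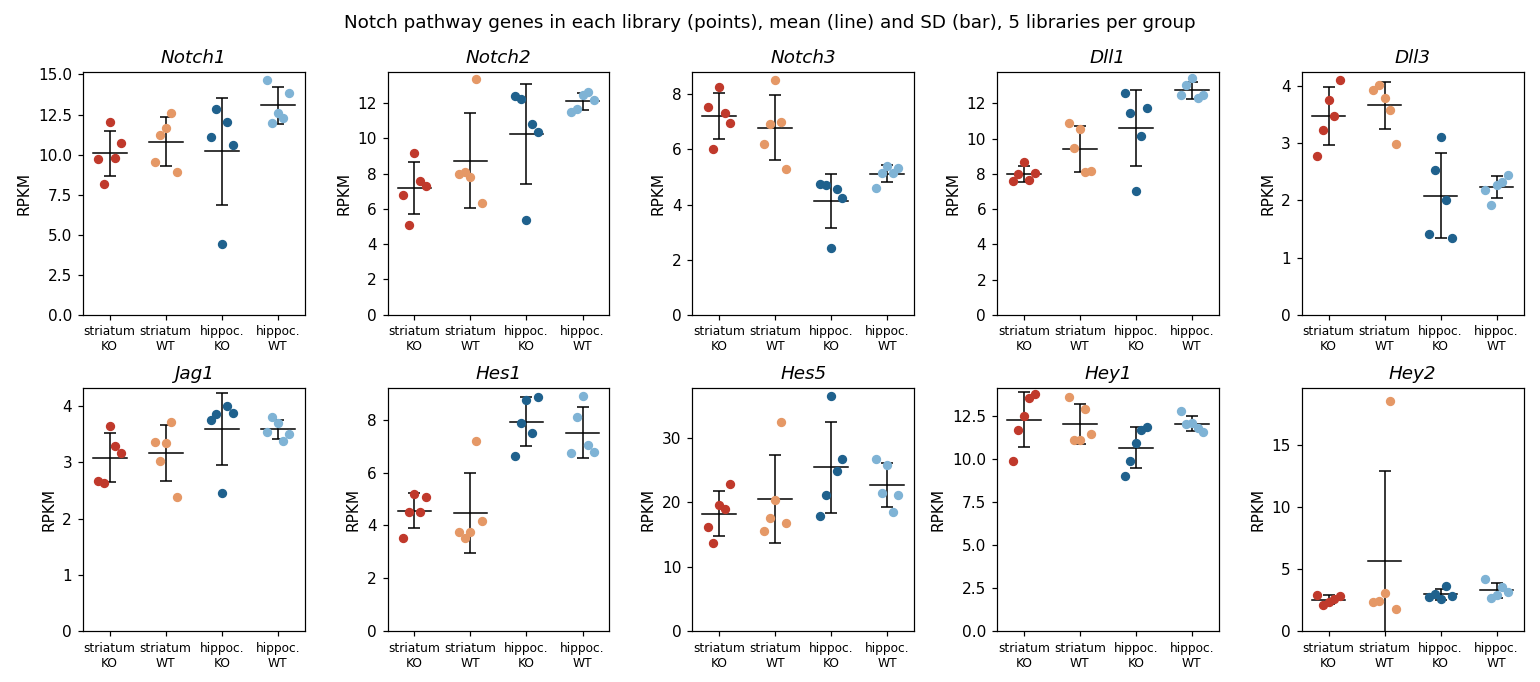
RPKM (vertical axes from 0, 1 panel a gene) of the 10 Notch genes in each library, with the mean as a line and the SD as a bar, for striatum knockout, striatum wild type, hippocampus knockout and hippocampus wild type (5 libraries each). Hey2 reached 18.6 RPKM in 1 wild type striatal library and at most 4.21 RPKM in any other library, and Dll3 lay higher in striatum than in hippocampus but for 1 knockout hippocampal library.

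Across genes, compared per length in RPKM, Hes5 was the highest of the 10 in every group. It averaged 18.2 ± 3.45 RPKM in knockout striatum, 20.5 ± 6.87 RPKM in wild type striatum, 25.4 ± 7.11 RPKM in knockout hippocampus and 22.7 ± 3.43 RPKM in wild type hippocampus (SD, n = 5 each). Hey1 and Notch1 followed in both striatal groups, at 12.3 and 10.1 RPKM in knockout libraries and at 12.02 and 10.8 RPKM in wild type ones, and within each genotype the values of these 2 overlapped. Dll3, Jag1 and Hey2 were low, between 2.08 and 3.66 RPKM on average in all 4 groups except for Hey2 in wild type striatum. Among receptors, Notch4, a receptor of endothelial cells, averaged 1.59 RPKM in knockout striatum, 1.57 RPKM in wild type striatum, 1.67 RPKM in knockout hippocampus and 1.74 RPKM in wild type hippocampus, below the other 3 receptors in each group.

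To ask whether loss of Helios goes with a difference in Notch genes, knockout was set against wild type within each tissue. In striatum, 0 of 10 members were called by limma at an adjusted p below 0.05, where 0.0137% of 14640 genes were called, namely Ikzf2 and Wdfy1, and limma voom on the recovered reads also called 0 members. Only Dll1 had an unadjusted p below 0.05, where 4.04% of all genes did. The median log2 change of the 10 members was -0.08, against -0.00 for all genes tested, with 3 members above 0 and 7 below. For 0 of 10 members did the genotypes fail to overlap, where 0.813% of all genes did so. Wdfy1 is named because so few genes were called, and was picked out after its values were seen. Ikzf2 had a log2 change of -0.91 ± 0.11 (SE) in striatum, with a limma adjusted p of 0.0481. No gene was called, Ikzf2 included, without wild type 2, 3 or 5, without any 1 knockout library, or without codes 7_1 and 7_6. A lack of calls in striatum therefore does not show that the Notch genes were unchanged.

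Of the receptors, which receive the signal, Notch1 was at 9.74, 8.14, 12.02, 9.80 and 10.7 RPKM in knockout striatum and at 9.56, 11.2, 11.7, 12.6 and 8.91 RPKM in wild type striatum. Notch2 was at 6.80, 5.09, 9.14, 7.56 and 7.31 RPKM in knockout striatum and at 7.99, 8.10, 7.83, 13.3 and 6.34 RPKM in wild type striatum. Notch3, the receptor best known from vascular mural cells, was at 7.53, 6.01, 8.25, 7.30 and 6.96 RPKM in knockout striatum and at 6.21, 6.91, 8.51, 6.99 and 5.30 RPKM in wild type striatum. For all 3 receptors the genotypes overlapped, and the highest Notch2 value was that of wild type library 4. The log2 changes were -0.09 ± 0.11 for Notch1, -0.23 ± 0.18 for Notch2 and 0.08 ± 0.11 for Notch3 (SE), each with a limma adjusted p of 0.987. Without wild type library 4 the change of Notch2 was -0.08.

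Dll1, a ligand of neuronal precursors, was at 7.57, 7.99, 8.69, 7.66 and 8.04 RPKM in knockout striatum and at 10.9, 9.47, 10.5, 8.10 and 8.15 RPKM in wild type striatum. All 5 knockout libraries lay in a narrow band, 3 wild type libraries lay above it and 2 lay inside it. The log2 change was -0.21 ± 0.08 (SE), with an unadjusted limma p of 0.0318 and an adjusted p of 0.987, so the difference did not pass. The authors' deposited table gives Dll1 a log2 change of -0.22, a p of 0.0132 and an adjusted p of 0.802 in striatum. Among codes beginning with 7, which hold 1 striatal library of each genotype, Dll1 was at 7.57 RPKM in the knockout and at 8.15 RPKM in the wild type library, with no test possible.

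The other ligands differed less. Dll3, a divergent ligand that acts inside the cell and inhibits Notch there, was at 2.78 to 4.11 RPKM in knockout striatum and at 3.00 to 4.01 RPKM in wild type striatum, with a log2 change of -0.06 ± 0.10 (SE). Jag1, a ligand of the Serrate type, was at 2.63 to 3.65 RPKM in knockout striatum and at 2.39 to 3.72 RPKM in wild type striatum, with a log2 change of -0.03 ± 0.10 (SE). The adjusted p-values by limma were 0.987 for Dll3 and 0.99 for Jag1.

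Of the targets, Hes1 was at 3.53, 4.49, 5.21, 4.49 and 5.07 RPKM in knockout striatum and at 3.76, 3.51, 3.77, 7.18 and 4.15 RPKM in wild type striatum. Hes5, the Hes gene most tied to neural progenitors, was at 16.1, 13.7, 19.6, 19.0 and 22.8 RPKM in knockout striatum and at 15.5, 17.6, 20.3, 32.4 and 16.8 RPKM in wild type striatum. Hey2 was at 2.90, 2.09, 2.33, 2.56 and 2.83 RPKM in knockout striatum and at 2.33, 2.46, 3.03, 18.6 and 1.79 RPKM in wild type striatum. In each of these 3 genes the highest value was that of wild type library 4, and the remaining wild type values overlapped those of the knockout. The log2 changes were 0.05 ± 0.16 for Hes1, -0.13 ± 0.19 for Hes5 and -0.44 ± 0.44 for Hey2 (SE). Without wild type library 4 they were 0.21, 0.04 and 0.06, and none passed in either form. With codes 7_6 and 7_1 left out the change of Hey2 was -0.67, with an adjusted p of 0.953. Heyl, the third gene of the Hey family, was at 1.15 to 1.59 RPKM in knockout striatum and at 1.30, 1.47, 1.46, 10.2 and 1.47 RPKM in wild type striatum, so it stood apart in the same library. The authors' deposited table gives neither Hey2 nor Heyl a p in striatum. Hey1 was at 9.86 to 13.8 RPKM in knockout striatum and at 11.1 to 13.6 RPKM in wild type striatum, with a log2 change of 0.02 ± 0.09 (SE) and an adjusted p of 0.99 by limma.

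In hippocampus, 0 of 10 members were called, where 0% of 14477 genes were called by limma. The targeted gene Ikzf2 was not called there either, at a log2 change of -0.43 ± 0.16 (SE). Its limma p was 0.0205 and its adjusted p 0.725. The authors' deposited table gives Ikzf2 a log2 change of -1.075 and a p of 5.02e-15 in hippocampus. These 2 changes are not directly comparable, as log2(RPKM + 1) understates changes of low genes. The ratio of mean RPKM, knockout over wild type by the titles, was 0.564. By Ikzf2 level, a library of each label lay among the other group. The change of Ikzf2 with the striatal genotype of their codes is not given here. The part of these labels in the missed call was not tested. A lack of calls here therefore does not show that the Notch genes were unchanged. No member had an unadjusted p below 0.05, where 4.58% of all genes did, and limma voom called 0 members too. The median log2 change of the members was -0.14, against -0.01 for all genes tested, with 2 members above 0 and 8 below. For 0 of 10 members did the groups fail to overlap, where 2.42% of all genes did so.

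Notch1 was at 11.1, 12.9, 4.44, 12.02 and 10.6 RPKM in hippocampus labelled knockout and at 14.7, 11.98, 12.6, 12.3 and 13.9 RPKM in hippocampus labelled wild type. Notch2 was at 12.4, 12.2, 5.39, 10.8 and 10.3 RPKM in knockout and at 11.5, 11.7, 12.5, 12.6 and 12.2 RPKM in wild type hippocampus. Notch3 was at 4.74, 4.70, 2.41, 4.57 and 4.23 RPKM in knockout and at 4.59, 5.14, 5.38, 5.14 and 5.32 RPKM in wild type hippocampus. In each receptor the third knockout value, that of library 8, was far below all others, and the remaining values of the 2 groups overlapped. The log2 changes were -0.40 ± 0.22 for Notch1, -0.27 ± 0.18 for Notch2 and -0.28 ± 0.14 for Notch3 (SE), each with a limma adjusted p of 0.725. Without library 8 they were -0.15, -0.08 and -0.14.

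Dll1 was at 12.6, 11.4, 7.03, 10.2 and 11.8 RPKM in knockout hippocampus and at 12.5, 13.0, 13.5, 12.3 and 12.5 RPKM in wild type hippocampus. Of the 5 knockout libraries 4 lay below every wild type library, and knockout 5, the one whose code has the other genotype in striatum, lay among them. The log2 change was -0.27 ± 0.13 (SE), with a limma p of 0.0618 and an adjusted p of 0.725, and it was -0.14 without library 8. With codes 7_6 and 7_1 left out the change was -0.34, with an adjusted p of 0.703, and with their striatal genotype it was -0.27, with an adjusted p of 0.729. The authors' deposited table gives Dll1 a log2 change of -0.21, a p of 0.0576 and an adjusted p of 0.868 in hippocampus. Among codes beginning with 7, Dll1 was at 12.6 RPKM in the library labelled knockout and at 12.5 RPKM in the one labelled wild type.

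The remaining ligands and targets did not pass either. Dll3 was at 1.35 to 3.10 RPKM in knockout and at 1.92 to 2.44 RPKM in wild type hippocampus, and Jag1 was at 2.45 to 3.99 RPKM in knockout and at 3.38 to 3.81 RPKM in wild type hippocampus. Hes5 was at 17.8, 21.2, 36.6, 24.9 and 26.7 RPKM in knockout and at 26.7, 21.4, 25.7, 18.5 and 21.1 RPKM in wild type hippocampus, with its highest value in the library in which the receptors were lowest. Its log2 change was 0.13 ± 0.17 (SE) and was -0.01 without that library, and with codes 7_6 and 7_1 left out or given their striatal genotype it was 0.22, without passing. Hes1 averaged 7.92 ± 0.922 RPKM in knockout and 7.51 ± 0.960 RPKM in wild type hippocampus, and Hey1 averaged 10.6 ± 1.20 RPKM in knockout and 12.1 ± 0.452 RPKM in wild type hippocampus (SD, n = 5 each). The log2 change of Hey1 was -0.17 ± 0.08 (SE), with a limma p of 0.0519 and an adjusted p of 0.725. With the striatal genotype of codes 7_6 and 7_1 it was -0.04, with an adjusted p of 0.853. The authors' deposited table gives Hey1 a log2 change of -0.02 and a p of 0.845 in hippocampus. That table gives Dll3 a log2 change of 0.12, against -0.10 here with the titles' labels and 0.10 with the striatal genotype of these codes. Which genotype the authors gave the 2 codes was not tested. Hey2 was at 2.58 to 3.64 RPKM in knockout and at 2.65 to 4.21 RPKM in wild type hippocampus.

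**Figure D2:**
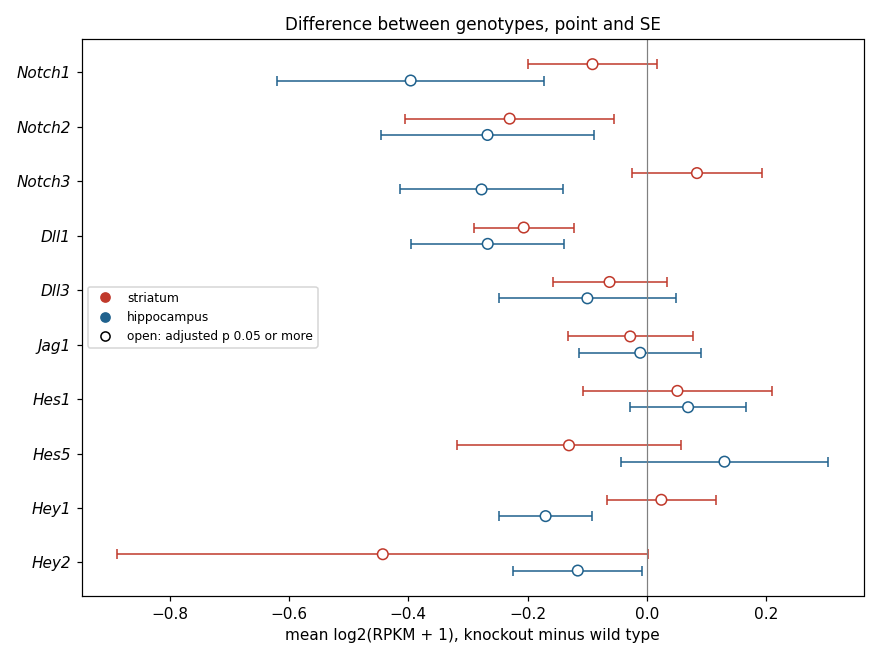
Difference of mean log2(RPKM + 1), knockout minus wild type, of each Notch gene (rows) in striatum and in hippocampus, with the SE as a bar; open points did not pass limma at an adjusted p of 0.05. All 20 points are open, and Hey2 in striatum has the widest bar, at -0.44 ± 0.44.

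The change with genotype was then compared between the tissues in 1 fit over the 20 libraries. Of the members 0 were called for the interaction, where 0% of 15007 genes were called and 3.46% had an unadjusted p below 0.05, a level that no member reached. Notch3 had the smallest p of the members, with a difference of 0.36 ± 0.18 on the log2 scale (SE), a limma p of 0.0609 and an adjusted p of 0.814. Without hippocampus knockout 8 that difference was 0.22.

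More Notch genes were called between the tissues than between the genotypes. In knockout libraries limma called 3 of 10 members, Notch3 and Dll3 higher and Hes1 lower in striatum, where 29% of 14549 genes were called, 13.1% higher and 15.9% lower. In wild type libraries limma called 6 of 10 members, of which Dll3 and Notch3 were higher in striatum and Dll1, Notch2, Notch1 and Hes1 were lower in striatum. Across all genes 44.3% of 14475 were called in wild type libraries, 21% higher and 23.3% lower, so in both genotypes the members' share is not far from the background. Those 3 genes, Notch3, Dll3 and Hes1, passed in the same direction in both genotypes, and the 2 comparisons share no library. With the replicate number as a block, only Hes1 stayed called in knockout libraries. In bulk tissue, fewer cells of a type and less RNA per cell cannot be told apart.

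Dll3 stood out among the ligands. In knockout libraries it was at 2.78, 3.23, 3.76, 3.48 and 4.11 RPKM in striatum and at 1.42, 2.52, 3.10, 2.01 and 1.35 RPKM in hippocampus, which overlapped by 1 hippocampal library, knockout 8. The log2 change was 0.56 ± 0.16 (SE), with a limma adjusted p of 0.0206, and 0.68 without knockout 8. That call was lost when hippocampus knockout 5 or 10 or striatum knockout 8 or 10 was left out, with adjusted p-values of 0.0513 to 0.0528. It was also lost with codes 7_6 and 7_1 left out (adjusted p of 0.0544). The replicate number as a block, in a fit that left out the same codes, gave an adjusted p of 0.0992. Dll3 in wild type libraries was at 3.94, 4.01, 3.78, 3.58 and 3.00 RPKM in striatum, against 2.19, 1.92, 2.27, 2.33 and 2.44 RPKM in hippocampus. There every striatal library lay above every hippocampal one, as in 15% of all genes, and the change was 0.53 ± 0.08 (SE), with an adjusted p of 0.000261.

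Notch3 averaged 7.21 ± 0.822 RPKM in knockout striatum and 4.13 ± 0.984 RPKM in knockout hippocampus (SD, n = 5 each), with no overlap, as in 13.9% of all genes. The log2 change was 0.70 ± 0.15 (SE), with a limma adjusted p of 0.00409, and was 0.56 without hippocampus knockout 8. With the replicate number as a block, in a fit that left out codes 7_6 and 7_1, the limma adjusted p was 0.0617. In wild type libraries Notch3 averaged 6.78 ± 1.18 RPKM in striatum and 5.11 ± 0.313 RPKM in hippocampus, with a change of 0.34 ± 0.10 (SE) and an adjusted p of 0.0148. Of the wild type striatal libraries only number 5, at 5.30 RPKM, lay among the hippocampal values. The summed level of the 12 mural markers, cells in which Notch3 is known to be high, was 42.2 to 47.7 RPKM in knockout striatum and 58.7 to 98.6 RPKM in knockout hippocampus, and 45.7 to 79.6 RPKM in wild type striatum and 59.1 to 71.8 RPKM in wild type hippocampus. The highest sums, 98.6 and 79.6 RPKM, were those of hippocampus knockout 8 and wild type striatum 4. Of 11 tested mural markers, 2 were called lower in knockout striatum and 1 in wild type striatum, with none called higher. Of all genes 15.9% and 23.3% were called lower. None of the 12 was at 0 in every library of a group, and their part in the Notch3 difference was not tested.

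Hes1 was lower in striatum, at 3.53, 4.49, 5.21, 4.49 and 5.07 RPKM in knockout striatum, against 6.63, 7.87, 8.75, 7.51 and 8.86 RPKM in knockout hippocampus. These groups did not overlap, as in 14.2% of all genes, and the log2 change was -0.69 ± 0.11 (SE), with a limma adjusted p of 0.000585. Hes1 in wild type libraries was at 3.76, 3.51, 3.77, 7.18 and 4.15 RPKM in striatum and at 6.73, 8.12, 8.90, 7.03 and 6.77 RPKM in hippocampus. Wild type striatum 4 was the only striatal library to reach the hippocampal values. The change there was -0.67 ± 0.15 (SE), with an adjusted p of 0.00446, and was -0.82 without that library.

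Dll1 had a log2 change of -0.35 ± 0.13 (SE) in knockout libraries, with a limma adjusted p of 0.0719, and it passed without hippocampus knockout 8, at -0.47 with an adjusted p of 0.000198. In wild type libraries it averaged 9.43 ± 1.30 RPKM in striatum and 12.7 ± 0.490 RPKM in hippocampus (SD, n = 5 each), with every striatal library below every hippocampal one, as in 15.8% of all genes. That change was -0.41 ± 0.08 (SE), with an adjusted p of 0.00171. Notch2 had a log2 change of -0.43 ± 0.20 (SE) in knockout libraries, with a limma adjusted p of 0.147, and without hippocampus knockout 8 it passed, at -0.62 with an adjusted p of 0.00229. Notch2 in wild type libraries averaged 8.72 ± 2.68 RPKM in striatum and 12.1 ± 0.498 RPKM in hippocampus, a change of -0.47 ± 0.14 (SE) with an adjusted p of 0.0204. Notch1 had a change of -0.26 ± 0.09 (SE) in wild type libraries, with an adjusted p of 0.0371, and that call was lost when any 1 of 6 libraries was left out, namely striatum 1, 2 or 5 or hippocampus 1, 3 or 6. It was also lost with no filter on low values (adjusted p of 0.053) and with codes 7_6 and 7_1 left out (0.152) or given their striatal genotype (0.11). The replicate number as a block, in a fit that left out the same codes, gave an adjusted p of 0.238.

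Jag1, Hes5, Hey1 and Hey2 were not called between tissues in either genotype with all libraries in the fit. Without hippocampus knockout 8, Jag1 was lower in knockout striatum, at a log2 change of -0.26 with an adjusted p of 0.0252. Without wild type striatum 4, Hes5 and Hey2 were lower in wild type striatum, at log2 changes of -0.35 (adjusted p of 0.0205) and -0.34 (adjusted p of 0.0354), whereas with that library the change of Hey2 was 0.17 ± 0.45 (SE), in the other direction. Hey1, at 12.02 ± 1.16 RPKM in wild type striatum and 12.1 ± 0.452 RPKM in wild type hippocampus (SD, n = 5 each), had a change of -0.01 ± 0.06 (SE).

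**Figure D3:**
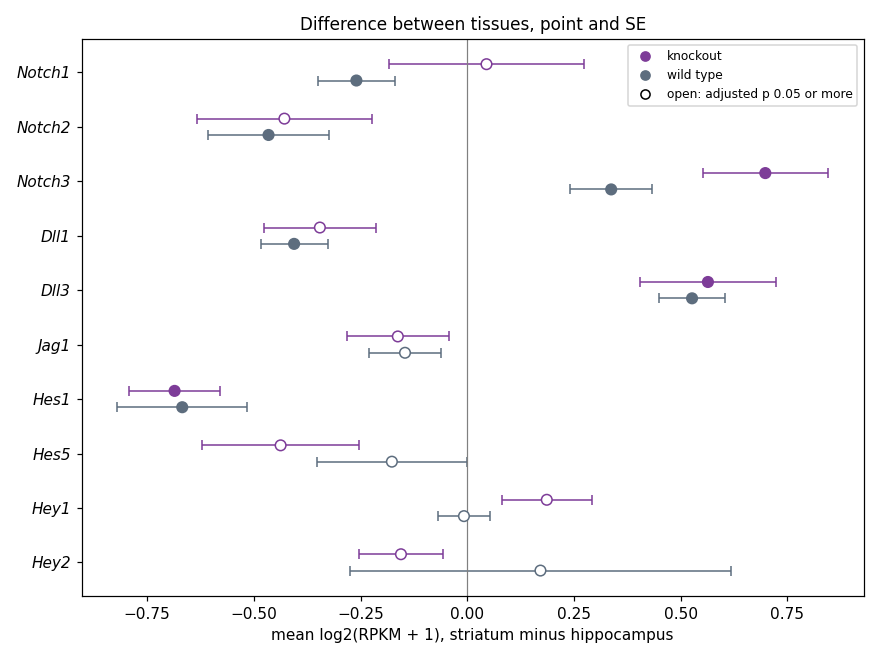
Difference of mean log2(RPKM + 1), striatum minus hippocampus, of each Notch gene (rows) in knockout and in wild type libraries, with the SE as a bar; filled points passed limma at an adjusted p of 0.05 and open ones did not. Dll3 and Notch3 lie to the right and Hes1 to the left with filled points in both genotypes.

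The other genes of the pathway were described by lists of known parts. Between genotypes no gene of the 7 other lists was called in either tissue. Nrarp, a target that feeds back on the receptor, averaged 18.3 ± 1.30 RPKM in knockout hippocampus and 21.9 ± 1.48 RPKM in wild type hippocampus (SD, n = 5 each), with a log2 change of -0.24 ± 0.07 (SE), a limma p of 0.00535 and an adjusted p of 0.725. The knockout library of code 7_6 was the lowest hippocampal one, at 17.4 RPKM, and the wild type library of code 7_1 was at 20.7 RPKM. With the striatal genotype of these codes the groups overlap. Rbpj, the DNA-binding partner, had log2 changes of -0.11 ± 0.07 in striatum and -0.26 ± 0.15 in hippocampus (SE), which did not pass. Without hippocampus knockout 8 the hippocampal change of Rbpj was -0.10, and without striatum knockout 6 the striatal one was -0.06. Lfng, a glycosyltransferase that alters which ligands a receptor answers to, had -0.03 ± 0.13 and -0.18 ± 0.09 (SE) in striatum and in hippocampus, which did not pass either.

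Between tissues several of these genes were called, and the values that follow are log2 changes, striatum minus hippocampus, with their SEs. Over all genes 13.1% were called higher and 15.9% lower in knockout libraries, and 21% higher and 23.3% lower in wild type ones, and the share of each list is given to be read against these. Of the remaining receptors and ligands, the ligand gene Jag2 was higher in striatum, with a log2 change of 0.37 ± 0.11 in knockout and 0.40 ± 0.08 in wild type libraries, and Dll4, the ligand of vessel sprouting, was lower in striatum in wild type libraries, at -0.37 ± 0.08. The summed level of 12 endothelial markers, none of them at 0 in every library of a group, was 78.9 to 102 RPKM in wild type striatum and 106 to 124 RPKM in wild type hippocampus, and 7 of the 10 tested were called lower in striatum. Their part in the Dll4 difference was not tested. The knockout call of Jag2 was lost without hippocampus 7 or 10 or striatum 6, 7 or 8. Of 10 genes of receptor cleavage, 3 (30%) were lower in striatum and 0 higher in knockout libraries, among them the convertase Furin, at -0.46 ± 0.08, and the sheddase Adam17, at -0.36 ± 0.10. In wild type libraries 5 (50%) were lower and 0 higher, and Furin and Adam17 were again among them, at -0.36 ± 0.06 and -0.30 ± 0.11. The median log2 change of that list was -0.25 in knockout libraries, against -0.01 for all genes tested, and -0.20 in wild type libraries, against -0.00. The call of Adam17 was lost without knockout hippocampus 7, 9 or 10 or knockout striatum 7, and in wild type libraries with any single library but striatum 4 left out.

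Among 8 genes of ligand ubiquitination and endocytosis, 3 (37.5%) were higher and 0 lower in knockout striatum, and 4 (50%) were higher and 1 (12.5%) lower in wild type striatum. Neurl1a, a Neuralized ubiquitin ligase, had the largest log2 change of the list in both, 1.27 ± 0.16 in knockout and 1.18 ± 0.14 in wild type libraries (SE), and the dynamin gene Dnm1 had 0.82 ± 0.14 in knockout and 0.97 ± 0.11 in wild type libraries. The ubiquitin ligase gene Mib1 was the lower one in wild type libraries, at -0.29 ± 0.07. Mib1 in knockout libraries had a log2 change of 0.24 ± 0.44, which did not pass, and was lower without hippocampus knockout 8, at -0.26 with a limma adjusted p of 0.0377. Of 6 glycosylation genes, 1 (16.7%) was higher and 2 (33.3%) were lower in knockout striatum, with log2 changes of Eogt at 0.46 ± 0.16, Pofut1 at -0.35 ± 0.07 and Poglut1 at -0.33 ± 0.07 (SE). Wild type striatum had 2 (33.3%) higher and 3 (50%) lower, with Eogt at 0.29 ± 0.08, Rfng at 0.27 ± 0.07, Poglut1 at -0.41 ± 0.04 and Lfng at -0.40 ± 0.11. The knockout call of Eogt was lost with any single library but hippocampus 5 or 8 left out, and without hippocampus knockout 8 Lfng passed too, at -0.29 with a limma adjusted p of 0.037. It also passed without striatum knockout 10, at -0.33 with an adjusted p of 0.033.

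Of 14 tested genes of the nuclear complex and its co-repressors, 2 (14.3%) were higher and 1 (7.14%) lower in knockout striatum. The Groucho family co-repressors Tle4 and Tle3 were higher, at log2 changes of 1.01 ± 0.13 and 0.61 ± 0.10 (SE), and the deacetylase gene Hdac1 was lower, at -0.61 ± 0.13. Wild type striatum had 3 (21.4%) higher and 3 (21.4%) lower, with Tle4 at 0.71 ± 0.17, Tle3 at 0.68 ± 0.07, Rbpj at -0.36 ± 0.05 and Hdac1 at -0.36 ± 0.10. These shares were near those of all genes. Rbpj in knockout libraries had -0.21 ± 0.16, which did not pass, and passed without hippocampus knockout 8, at -0.37 with a limma adjusted p of 0.00229. Without that library 3 of the list were higher and 3 lower in knockout striatum, and without wild type striatum 4 there were 5 higher and 5 lower in wild type striatum. Of 11 tested regulators of the receptor, 2 (18.2%) were higher in knockout striatum, the ubiquitin ligase gene Fbxw7 at a log2 change of 0.41 ± 0.13 and the Deltex gene Dtx1 at 0.34 ± 0.10. Wild type striatum had 4 (36.4%) higher and 0 lower, led by Dtx1 at 0.43 ± 0.06 and Fbxw7 at 0.39 ± 0.10. The knockout call of Fbxw7 was lost with any single library but hippocampus 8 or striatum 6 left out, and that of Dtx1 without hippocampus 7, 9 or 10 or striatum 6 or 7.

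Of 9 tested genes that Notch can act on in other settings, 3 (33.3%) were higher and 3 (33.3%) lower in knockout striatum, and 2 (22.2%) were higher and 3 (33.3%) lower in wild type striatum. Id4, an inhibitor of basic helix-loop-helix factors, was higher, at a log2 change of 1.40 ± 0.17 in knockout and 1.14 ± 0.09 in wild type libraries (SE), and so was Myc, a growth regulator, at 0.44 ± 0.09 in knockout and 0.49 ± 0.11 in wild type libraries. Gfap, the filament gene of astrocytes, was lower, at -3.84 ± 0.14 in knockout and -3.84 ± 0.08 in wild type libraries, and so was the cyclin gene Ccnd1, at -0.62 ± 0.11 in knockout and -0.53 ± 0.10 in wild type libraries. Heyl was lower in knockout striatum, at -0.38 ± 0.08, and in wild type libraries its change was 0.07 ± 0.38, with 1 striatal library at 10.2 RPKM. Without that library, wild type 4, Heyl was lower there too, at -0.37 with a limma adjusted p of 0.00167, and 6 genes of the list were lower in wild type striatum.

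How the members varied among themselves was described over the 10 libraries of each tissue, in 90 pairs in all. In striatum Pearson's r was above 0 in 41 of 45 pairs, with a median of 0.43, and in hippocampus in 28 of 45, with a median of 0.16. Without the 2 libraries farthest from the median of a pair's first gene, the medians were 0.32 and 0.04. Adjusted over all 90 pairs by the Benjamini-Hochberg method, 4 pairs passed a permutation test of r and 0 passed one of Spearman's rho, so no pair passed both. Notch1 and Notch2 in striatum had an r of 0.861 and a rho of 0.842 (permutation p of 0.00047 and 0.00365, adjusted 0.0378 and 0.0916), and r was 0.778 without the 2 libraries. Notch2 and Jag1 in striatum had an r of 0.809 and a rho of 0.867 (permutation p of 0.00194 and 0.00216, adjusted 0.0495 and 0.0916), and 0.897 without them. In hippocampus Notch2 and Notch3 had an r of 0.975 and a rho of 0.842 (permutation p of 0.00084 and 0.00407, adjusted 0.0378 and 0.0916), and r was 0.588 without the 2 libraries. Notch2 and Hes5 in hippocampus had an r of -0.825 and a rho of -0.733 (permutation p of 0.0022 and 0.0204, adjusted 0.0495 and 0.229), and -0.57 without them. The hippocampal pairs therefore rest in part on library knockout 8, which lies apart from the rest. With each genotype centred on its own mean, r was 0.853, 0.839, 0.98 and -0.825 in these 4 pairs.

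**Figure D4:**
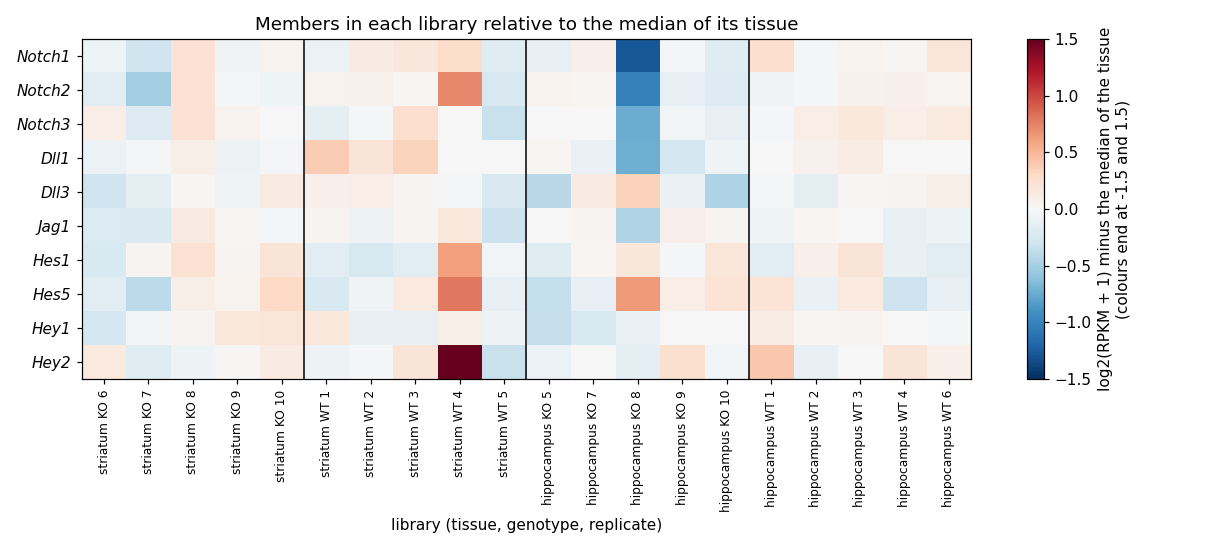
log2(RPKM + 1) of each Notch gene (rows) in each library (columns, by tissue, genotype and replicate) minus the median of the 10 libraries of its tissue, as a colour that ends at -1.5 and 1.5. Striatum WT 4 is high in Hey2, Notch2, Hes1 and Hes5, and hippocampus KO 8 is low in Notch1, Notch2, Notch3, Dll1 and Jag1 and high in Hes5.

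For each member the gene with the most similar pattern was taken from 12619 genes, by Pearson's r over the 20 libraries after centring each group. These values describe the libraries and carry no test, since the libraries share their depth and their length dependence. They were 0.988 for Notch1 with Zfp687, 0.944 for Notch2 with Trim36 and 0.937 for Notch3 with Dtna. They were 0.926 for Dll1 with Zfp111, 0.813 for Dll3 with Ctla2a and 0.936 for Jag1 with Tor1aip1. They were 0.89 for Hes1 with Prcp, 0.911 for Hes5 with Cgrrf1, 0.87 for Hey1 with Wdr92 and 0.963 for Hey2 with 0610040J01Rik. Without striatum wild type 4 and hippocampus knockout 8, the value for Notch1 was 0.966, that for Hey2 0.869 and that for Hes1 0.752.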

How the data were processed

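Messenger RNA of 20 mouse brain libraries was sequenced as stranded single reads of 75 bp, per the labels' protocols. The submitters' processing notes name BWA 0.7.4 and cutadapt 1.3, the counters HTSeq and featureCounts, DESeq2 and the build mm10, without saying which step used which. The authors deposited RPKM values, per the file headers, and 1 comparison table per tissue with log2 fold changes, standard errors and p-values per transcript, whose headers stand 1 column to the left of their values.

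In all these tables the values of 1 or more had lost their decimal mark (51.1% of RPKM values). Marks were put back by requiring that each RPKM value give whole reads (tolerance 0.001) for 1 gene length near the annotated one in all libraries. Tested on simulated data of 15211 genes, the method put back 99.86% of marks correctly. The simulation took the restored reads as truth and drew each library around the mean of its tissue. It therefore did not cover values that stand far from their tissue. Genes with an unsure mark, 402 in striatum and 678 in hippocampus, were left out of tests there, by rules set after the data were seen; keeping them is an alternative added later. No member was among them. In the authors' tables marks were placed so that change over error gave the statistic. The depth was 17966618 to 37085903 recovered reads per library, and RPKM of genes with few reads carry counting noise. The library size behind the RPKM values was 0.75 of the recovered reads in hippocampus knockout 7 and 0.946 to 1.04 of them in the other libraries.

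limma 3.58.1 (trend and robust) in R 4.3.3 compared log2(RPKM + 1) for genes that reached an RPKM of 0.5 in 5 or more of the libraries compared, with Benjamini-Hochberg adjustment over all of them. Log2 changes understate those of low genes. Errors of changes are SEs of that fit. Alternatives were a pseudocount of 0.1, no filter, quantile normalization, voom on recovered reads, each library left out, codes 7_1 and 7_6 left out or given the striatal genotype, and the replicate number as a block. In tissue comparisons the block fit also left out codes 7_1 and 7_6, which have no partner there. The same alternatives for the other pathway genes were added after the data were seen. The fit was tried on simulated data for the striatal genotype comparison only, and the outcome is not given here. That simulation gave all genes the same dispersion and held no library that stood apart. All 40 pairs of replicates differed by more than counting noise (smallest chi-square per degree of freedom 17). Correlations used 100000 resamples. Members and lists were chosen with earlier results of these data known. Named were all 10 members, 7 fixed pathway genes, and per list and comparison up to 2 called genes with the largest change each way. Symbols and positions came from GRCm38 annotation by Entrez identifier, and promoters from RefSeq, GRCm38.p6. Reads of overlapping genes cannot be separated.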

Additional observations from a re-analysis of the deposited data

Results flagged for a closer look

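In a group of 5 libraries, a value was singled out when its gap to the nearest library was more than 0.71 of the group's range (Dixon's test). Chance does this in about 1 in 20 groups, and here 7 of 44 groups of the 10 members and Ikzf2 had such a value. All 7 came from 2 libraries. In striatum wild type 4, Hey2 was at 18.6 RPKM, against 1.79 to 3.03 RPKM in the other 4 libraries of the group. Notch2 there was at 13.3 RPKM, against 6.34 to 8.10 RPKM. Hes1 was at 7.18 RPKM, against 3.51 to 4.15 RPKM, and Hes5 was at 32.4 RPKM, against 15.5 to 20.3 RPKM. In hippocampus knockout 8, Notch1 was at 4.44 RPKM, against 10.6 to 12.9 RPKM in the other 4. Notch3 there was at 2.41 RPKM, against 4.23 to 4.74 RPKM, and Jag1 was at 2.45 RPKM, against 3.76 to 3.99 RPKM.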

How the results depend on the processing

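Between genotypes and in the interaction, 0 members were called under every alternative run. In knockout libraries, 3 members were called between tissues with all libraries, 1 with the replicate block and 2 to 6 with single libraries left out, the 6 being without hippocampus knockout 8. In wild type libraries they were 4 to 8 (5 to 8 with single libraries left out) around 6. Of 970 values of single Notch genes, 891 kept direction and side of the threshold, 19 lost a call, 7 gained one and 53, of 18 results, changed sign, 52 of them called neither before nor after. The exception was Hey2 between tissues in wild type libraries, which ran from -0.34 without striatum wild type 4 to 0.37 with other single libraries left out. With single libraries left out, striatal genotype changes ran from -0.10 to 0.019 for Jag1, from -0.0096 to 0.21 for Hes1, from -0.21 to 0.040 for Hes5, from -0.017 to 0.094 for Hey1 and from -0.64 to 0.065 for Hey2. Hippocampal ones ran from -0.045 to 0.088 for Jag1 and from -0.0069 to 0.24 for Hes5. Between tissues Notch1 ran from -0.20 to 0.14 in knockout libraries and Hey1 from -0.050 to 0.018 in wild type ones. The interaction ran from -0.15 to 0.19 for Notch2, from -0.067 to 0.12 for Dll1, from -0.053 to 0.15 for Dll3, from -0.12 to 0.031 for Jag1, from -0.079 to 0.14 for Hes1 and from -0.52 to 0.18 for Hey2. With codes 7_1 and 7_6 left out, genotype changes were -0.0041 for Notch3 in striatum and 0.0024 for Dll3 in hippocampus, and interactions -0.061 for Dll3 and 0.018 for Hes1. With their striatal genotype, Dll3 had 0.10 in hippocampus, Notch1 had -0.014 between tissues in knockout libraries, Hey1 had 0.058 between tissues in wild type libraries, and interactions were -0.17 for Dll3 and 0.016 for Jag1. With quantile normalization Jag1 had 0.0019 in hippocampus. The cause of these changes was not tested. Notch3 in knockout libraries had an adjusted p of 0.0617 with the block, Dll3 0.0992, and Notch2 in wild type libraries 0.0573 with the block and 0.0808 with codes 7_1 and 7_6 left out. These block fits left out the same codes. Same-numbered libraries of the 2 tissues carry the same code, but the labels do not say that they share an animal, and the correlations of their deviations were -0.162 to 0.212 in knockout and 0.0607 to 0.157 in wild type libraries, not above 0.1 in every pair. Of the 4 knockout libraries 1, and each wild type one, correlated best with its own number. Over all genes, calls in striatum were 2, and 0 to 2 under alternatives. Where they were 0, Ikzf2 was not called either. Calls were 1 with quantile normalization, where all calls were higher, against 50% of 2, so that call was not Ikzf2. In hippocampus 0 genes were called, and 2 with the striatal genotypes of the codes. In knockout tissue comparisons 4220 genes were called, 2606 without the codes and 2412 with the block. In knockout libraries the block also ended the tissue calls of Furin, Myc, Pofut1, Poglut1, Adam17, Dtx1, Eogt and Jag2, and in wild type libraries those of Lfng, Hdac1 and Adam17. Keeping genes with unsure marks, an alternative chosen after seeing the data, changed no call of a Notch gene among the 10. With 5 libraries per group, genotype changes of Notch genes had SEs of 0.08 to 0.44 on the log2 scale, and differences within that error cannot be told from 0.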
